A study of Saccharomyces cerevisiae with 4 samples.

Results

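The 10 genes of sulfate assimilation and methionine synthesis described here were chosen by name out of 6002 annotated nuclear protein-coding genes, of which 5710 had at least 300 bp and were counted. They are the sulfate permease gene SUL2, the reduction genes MET3, MET14, MET16, MET5 and MET10, the homoserine acetyltransferase gene MET2, the methionine synthase gene MET6, and the transsulfuration genes CYS4 and CYS3. Sulfate assimilation is the route by which yeast turns sulfate from the medium into sulfide and builds it into homocysteine, methionine and cysteine. Its genes are known to be switched on when methionine runs short, through the activator Met4 and the DNA-binding proteins Cbf1, Met31 and Met32 that bring Met4 to their promoters.

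The 5′ ends of capped, polyadenylated RNA were mapped in set2Δ yeast (2 libraries) and in BY4741 yeast (2 libraries), to compare where transcription started without and with Set2. Set2 is the methyltransferase of lysine 36 on histone H3, a mark laid down behind elongating RNA polymerase II that is known to keep gene bodies from being used as promoters. The set2Δ strain carries set2::kanMX4 in the BY4741 background, and BY4741 is MATa his3Δ1 leu2Δ0 ura3Δ0 met15Δ0. The met15Δ0 deletion removes MET17 (also called MET15), the enzyme that joins sulfide to O-acetylhomoserine, and both strains are known as methionine auxotrophs. Both strains grew in YPD, a rich glucose medium, to mid-log phase. The libraries are described as biological duplicates, but nothing says whether set2Δ is a single clone.

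The set2Δ libraries held 1267578 and 1099482 counts, against 452888 and 375442 counts in the BY4741 libraries, a mean ratio of 2.86. Each count is a mapped 5′ end. The adapter held a random 8-nt barcode, and whether reads with the same barcode were merged is not given in the sources used here. The labels matched the counts within the deleted genes: the SET2 coding sequence held 0 and 1 counts in set2Δ, against 9 and 2 counts in BY4741. MET17, LEU2 and URA3 held 0 counts in all 4 libraries. HIS3, of which his3Δ1 is known to remove only an internal part, held 15 and 12 counts in set2Δ and 4 and 3 counts in BY4741.

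For each gene the sense 5′ ends were counted in a 5′ window, from 250 bp before the start codon to 200 bp into the gene, and in an internal window, from there to the gene end. Values in CPM are counts per 1000000 counts in windows of the same kind, with TMM scaling between libraries. Every stretch of 43 bases that begins in a window of the 10 genes occurs 100% uniquely in the genome. This covers exact copies and the 5′ and internal windows of the 10 genes only. The 10 genes together held 1024 and 928 counts in 5′ windows and 613 and 460 counts in internal windows in set2Δ. In BY4741 they held 554 and 449 counts in 5′ windows and 157 and 87 counts in internal windows.

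The upstream sequences show what the genes share. The E-box CACGTG, the site of Cbf1, lay within the 300 bp before the main 5′ end in 8 of the 10 genes, against 4.46% of all 5063 genes tested in the 5′ window. The Met31 and Met32 core TGTGGC, on either strand, lay there in 8 of the 10 genes, against 8.59% of all genes. The same 8 genes held both, which 0.751% of all genes did, and the pair of motifs shares no base in any of them. MET6 and CYS4 held neither motif in this window. Such a match is a description of the letters and not evidence of binding.

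The stretches of 7 genes follow, from the RefSeq sequence of build R64-1-1 and read 5′ to 3′ on the strand of the gene, namely those of the 8 genes that were called in at least 1 sense window, which leaves out MET14. Capitals mark CACGTG and TGTGGC or its complement GCCACA.
SUL2 (chrXII:323198-323273, plus strand): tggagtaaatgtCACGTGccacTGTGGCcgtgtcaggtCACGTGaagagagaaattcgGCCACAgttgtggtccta
MET3 (chrX:455850-456002, plus strand): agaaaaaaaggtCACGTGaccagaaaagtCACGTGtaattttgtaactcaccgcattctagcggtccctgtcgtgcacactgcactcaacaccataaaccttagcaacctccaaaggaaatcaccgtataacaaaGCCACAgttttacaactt
MET5 (chrX:683543-683628, minus strand): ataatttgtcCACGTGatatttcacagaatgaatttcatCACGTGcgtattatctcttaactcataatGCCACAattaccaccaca
MET2 (chrXIV:116984-117040, plus strand): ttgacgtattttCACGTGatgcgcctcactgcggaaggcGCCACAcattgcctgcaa
MET16 (chrXVI:877772-877822, minus strand): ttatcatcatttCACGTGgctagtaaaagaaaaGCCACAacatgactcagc
MET10 (chrVI:213051-213124, plus strand): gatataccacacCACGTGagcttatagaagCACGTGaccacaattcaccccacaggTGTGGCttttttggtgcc
CYS3 (chrI:130478-130624, plus strand): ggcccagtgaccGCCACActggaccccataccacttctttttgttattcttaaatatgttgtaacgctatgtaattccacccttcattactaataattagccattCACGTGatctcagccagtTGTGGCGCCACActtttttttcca

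In MET16 and MET10 the nearest pair of motifs began 128 and 107 bases, and 112 and 86 bases, before the main 5′ end. In MET3 the E-boxes began 164 and 147 bases before it and the Met31 and Met32 core only 41 bases before it. MET2 and MET5 held their motifs farther out, at 216 to 290 bases. The main 5′ end of MET5, 43 bases before the start codon, held 3 and 1 counts in set2Δ and 3 and 0 in BY4741. In set2Δ the most used base of MET5 lay 161 bases before the start codon, nearer the motifs. The main 5′ end of MET10 lay 119 bases before the start codon, or 54 with depth-scaled counts. That of MET3 lay 213 bases before the start codon, or 203 with depth-scaled counts. The distances in MET3, MET5 and MET10 thus depend on how the main 5′ end is chosen.

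**Figure D1:**
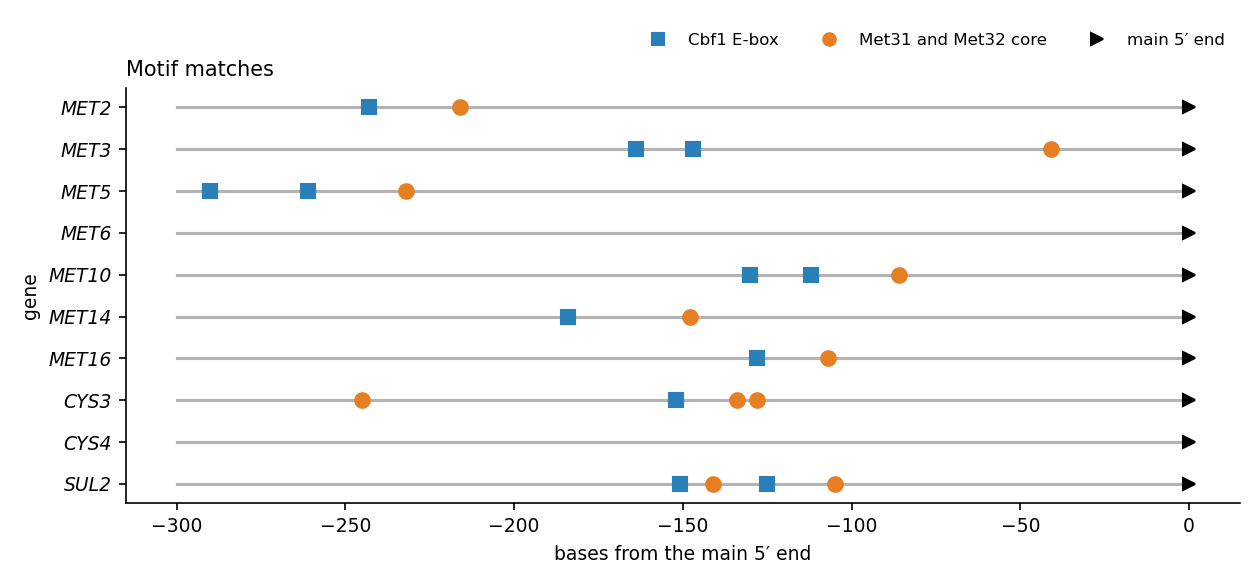
Positions of the 2 motifs in the 300 bases before the main 5′ end of each gene, in bases from that end (0, black arrow). The distances in MET3, MET5 and MET10 depend on how that end is chosen. Squares mark CACGTG and circles TGTGGC or its complement: 8 genes hold both, and the lines of MET6 and CYS4 are empty.

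The members differed in how they split between the windows. In set2Δ, starts inside MET3, MET5 and MET10 were higher than in BY4741 and formed clusters in the middle of each gene. Mapped 5′ ends inside CYS3 were lower, as were its starts in the 5′ window and those of CYS4, MET6 and MET3. Of the 10 genes, all tested in the internal window, 3 were called higher in set2Δ, against 25.2% of all 4726 genes tested, and 4 were called lower, against 17.5% of all genes (edgeR quasi-likelihood test, adjusted p below 0.1). The median log2 change of the 10 genes was -0.20, against 0.16 over all genes tested. In the 5′ window 1 of the 10 was called higher, against 32.3% of all 5063 genes, and 4 were called lower, against 30.2%. Their median log2 change there was -0.13, against 0.11 over all genes.

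**Figure D2:**
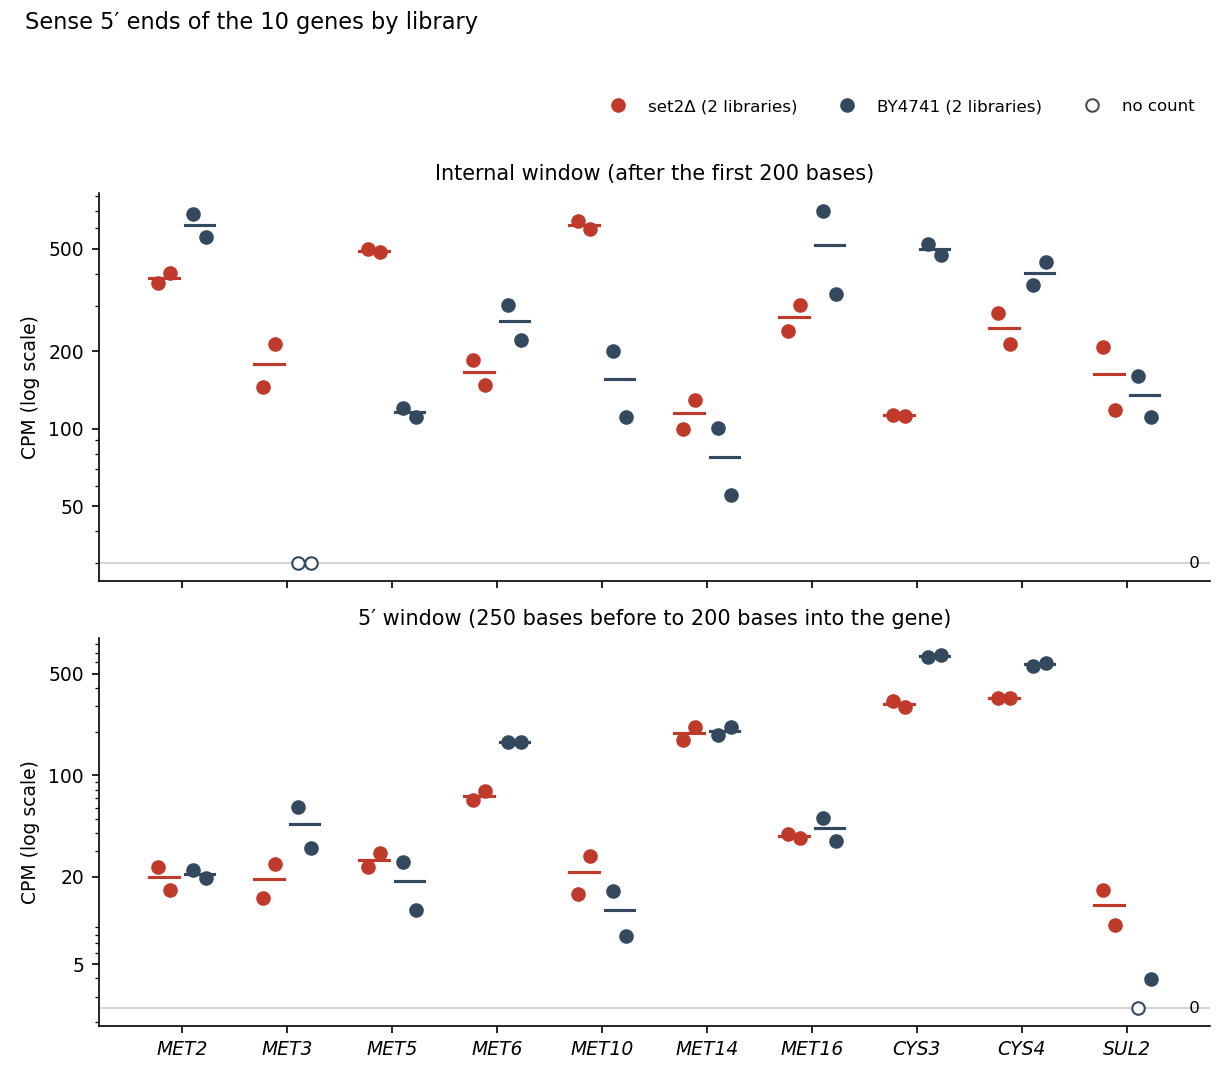
Sense 5′ ends in CPM (log axis) for the 10 genes, internal window above and 5′ window below, with set2Δ left of BY4741. Each point is a library, bars are means of 2 libraries with counts, and open points have no count: MET3 has none in its internal window in BY4741, and MET5 and MET10 are separated by strain only in the internal window.

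Sulfate enters the cell through the high-affinity permeases Sul1 and Sul2. SUL2 (YLR092W, chrXII:323544-326225, plus strand) had 16 and 8 counts in its 5′ window in set2Δ, against 0 and 1 counts in BY4741. The ratio of the summed counts, scaled for depth, was 7.39 with an exact 95% counting interval of 1.21 to 304. The edgeR quasi-likelihood test called SUL2 higher in the 5′ window (adjusted p = 0.0327), but the call was lost without BY4741 replicate 1 (adjusted p = 0.262) and with DESeq2 (adjusted p = 0.213). Most of these ends lay at 1 base, 183 bases before the start codon, with 9 and 5 counts in set2Δ and 0 and 1 counts in BY4741. Inside SUL2 the level was 208 and 118 CPM in set2Δ and 161 and 111 CPM in BY4741, so the strains overlapped (log2 change 0.27 ± 0.47 SE, adjusted p = 0.702).

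Sulfate is then activated by ATP sulfurylase, the product of MET3, and by adenylylsulfate kinase, the product of MET14. MET3 (YJR010W, chrX:456239-457774, plus strand) had 32 and 36 counts in its internal window in set2Δ and 0 and 0 counts in BY4741. Internal starts were thus at least 4.99-fold higher in set2Δ, taking 3 counts over the 2 BY4741 libraries as the floor (edgeR quasi-likelihood test, adjusted p = 7.25e-06). The 5′ window of MET3 went the other way, with 14.3 and 24.4 CPM in set2Δ against 60.5 and 31.5 CPM in BY4741 (log2 change -1.31 ± 0.41 SE, adjusted p = 0.00399). That decrease was not called without BY4741 replicate 1 (log2 change -0.75, adjusted p = 0.314). The difference between the internal and the 5′ change was itself called for MET3 (edgeR interaction test, adjusted p = 2.57e-06).

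MET14 (YKL001C, chrXI:438777-439385, minus strand), the shortest of the genes, had 176 and 217 CPM in its 5′ window in set2Δ and 191 and 217 CPM in BY4741 (log2 change -0.05 ± 0.16 SE, adjusted p = 0.805). Inside MET14 there were 22 and 22 counts in set2Δ and 5 and 2 counts in BY4741, and the CPM of the strains overlapped (log2 change 0.47 ± 0.60 SE, adjusted p = 0.593). Neither window was called. When the 5′ window was narrowed to 100 bp before the start codon and 99 bp after it, however, MET14 was called lower, with a log2 change of -0.44 (adjusted p = 0.0618).

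MET16 encodes the phosphoadenylylsulfate reductase that forms sulfite. MET16 (YPR167C, chrXVI:876847-877632, minus strand) had 39.7 and 37.1 CPM in its 5′ window in set2Δ and 50.9 and 35.4 CPM in BY4741, an overlap of the strains (log2 change -0.19 ± 0.36 SE, adjusted p = 0.665). In its internal window it had 240 and 301 CPM in set2Δ, against 702 and 332 CPM in BY4741. The internal value was called lower (log2 change -1.02 ± 0.29 SE, adjusted p = 0.00227), yet it rests on BY4741 replicate 1. Without that library the log2 change was -0.32 (adjusted p = 0.650).

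Sulfite reductase, which makes sulfide, consists of the α subunit Met10 and the β subunit Met5, and both of its genes gained internal starts. MET5 (YJR137C, chrX:678957-683285, minus strand) had 110 and 82 internal counts in set2Δ and 6 and 4 in BY4741. On the scaled level this was 497 and 484 CPM in set2Δ against 120 and 111 CPM in BY4741, a log2 change of 2.07 ± 0.40 SE or 4.19-fold (adjusted p = 3.08e-06). MET10 (YFR030W, chrVI:213312-216419, plus strand) had 141 and 101 internal counts in set2Δ and 10 and 4 in BY4741. The scaled level was 637 and 596 CPM in set2Δ against 201 and 111 CPM in BY4741, a log2 change of 1.92 ± 0.36 SE or 3.78-fold (adjusted p = 1.09e-06). For neither gene did the libraries of the strains overlap.

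In the 5′ window the sulfite reductase genes were among the 5 lowest members in both strains, and the libraries of the strains overlapped. MET5 had 23.4 and 29.0 CPM there in set2Δ and 25.5 and 11.8 CPM in BY4741 (log2 change 0.42 ± 0.51 SE, adjusted p = 0.484). MET10 had 15.3 and 27.8 CPM in set2Δ and 15.9 and 7.88 CPM in BY4741 (log2 change 0.77 ± 0.61 SE, adjusted p = 0.275). The difference between the internal and the 5′ change was not called for MET5 (log2 difference 1.67 ± 0.73 SE, adjusted p = 0.130) or for MET10 (1.18 ± 0.80 SE, adjusted p = 0.378). For MET5 it was called with 1 scaling per library for both windows (2.12, adjusted p = 0.0442) and without positions of 8 or more counts (1.88, adjusted p = 0.0912). Over all 4503 genes with both windows, 7.88% were called with the larger internal change, among the members MET3 only, and 6.86% with the smaller, among the members CYS3 only.

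The carbon chain that takes up the sulfide comes from homoserine, acetylated by the product of MET2. MET2 (YNL277W, chrXIV:117349-118809, plus strand) had 366 and 401 CPM in its internal window in set2Δ, against 682 and 554 CPM in BY4741 (log2 change -0.71 ± 0.27 SE, adjusted p = 0.0248). Its 5′ window held 23.4 and 16.2 CPM in set2Δ and 22.3 and 19.7 CPM in BY4741, and was not called (adjusted p = 0.915). The internal call was lost without BY4741 replicate 1 (log2 change -0.54, adjusted p = 0.287) and with DESeq2 (adjusted p = 0.153).

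Methionine synthase, which methylates homocysteine, is the product of MET6. MET6 (YER091C, chrV:339864-342167, minus strand) had 67.2 and 77.7 CPM in its 5′ window in set2Δ, against 169 and 169 CPM in BY4741 (log2 change -1.23 ± 0.21 SE, adjusted p = 2.26e-08). Inside MET6 the level was 185 and 147 CPM in set2Δ and 301 and 221 CPM in BY4741, which did not pass the test (log2 change -0.66 ± 0.39 SE, adjusted p = 0.178). It was called lower under 6 of 21 alternatives, cyclic loess offsets among them (log2 change -1.02, adjusted p = 0.0309).

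Transsulfuration links homocysteine to cysteine through cystathionine β-synthase, from CYS4, and cystathionine γ-lyase, from CYS3. These had the highest 5′ levels of the 10 genes, and both fell. CYS3 (YAL012W, chrI:130799-131983, plus strand) had 325 and 297 CPM in its 5′ window in set2Δ, against 659 and 673 CPM in BY4741 (log2 change -1.10 ± 0.13 SE, adjusted p = 7.14e-17). CYS4 (YGR155W, chrVII:798543-800066, plus strand) had 342 and 341 CPM in set2Δ, against 570 and 599 CPM in BY4741 (log2 change -0.77 ± 0.13 SE, adjusted p = 1.19e-08). With cyclic loess offsets the log2 change of CYS4 was -0.20 and was not called (adjusted p = 0.139). That of CYS3 was reduced to -0.52 with these offsets, but stayed called under all 19 alternatives.

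Inside CYS3 there were 25 and 19 counts in set2Δ and 26 and 17 counts in BY4741, so that equal counts stood against library totals that differ by 2.86. On the scaled level this was 113 and 112 CPM in set2Δ against 522 and 471 CPM in BY4741 (log2 change -2.14 ± 0.35 SE, adjusted p = 1.13e-08). The internal decrease of CYS3 was called larger than its 5′ decrease (log2 difference -1.06 ± 0.36 SE, edgeR interaction test, adjusted p = 0.0355). This difference was not called with 1 scaling per library for both windows (-0.56, adjusted p = 0.3735). It was not called without positions of 8 or more counts either (-0.86, adjusted p = 0.174). Nor was it called without set2Δ replicate 1 (-1.17) or without BY4741 replicate 1 (-0.93). CYS4 had 280 and 212 CPM inside the gene in set2Δ, against 361 and 443 CPM in BY4741. Its internal call was at the threshold (log2 change -0.66 ± 0.32 SE, adjusted p = 0.0967) and was lost when set2Δ replicate 2 or either BY4741 library was left out, at adjusted p of 0.259, 0.125 and 0.232.

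The internal calls depend on scaling. With libraries scaled to their totals, the median of all genes moved by 0.66 on the log2 scale, and with scaling to the 5′ windows by 0.48. Under library totals the log2 change was 2.73 for MET5 and 2.58 for MET10, still called, and -1.47 for CYS3, still called. It was -0.05 for MET2, -0.36 for MET16 and 0.01 for CYS4, none of them called. Starts inside SUL2 were then called higher (log2 change 0.93, adjusted p = 0.0908). Starts inside MET3, MET5 and MET10 were called higher, and 5′ ends inside CYS3 lower, under all 21 alternatives to the internal test. In these bulk samples, fewer cells that use a start and fewer molecules per cell cannot be told apart.

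**Figure D3:**
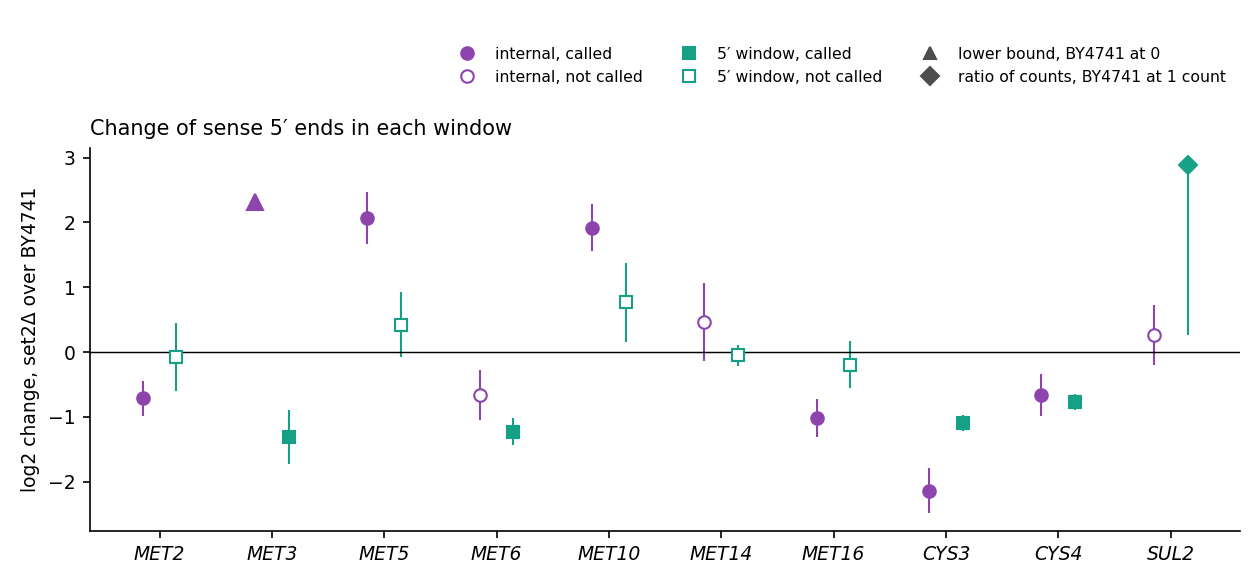
Log2 change of sense 5′ ends, set2Δ over BY4741, for the internal window (circles) and the 5′ window (squares) of each gene, with standard errors. The triangle is the lower bound for MET3, the diamond the ratio of counts for SUL2 with the lower end of its counting interval. Apart from the MET3 bound, internal changes reach 2.07 in MET5 and -2.14 in CYS3, while called 5′ changes lie at or below -0.77 apart from SUL2.

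The internal share, internal counts over internal plus 5′ counts, needs no scaling between libraries. In MET3 it was 69.6% (95% Wilson interval 55.2 to 80.9) and 63.2% (50.2 to 74.5) in set2Δ, against 0% (0 to 16.8) and 0% (0 to 32.4) in BY4741. In MET5 it was 82.7% and 76.6% in set2Δ against 42.9% and 57.1% in BY4741, the last 2 from 14 and 7 counts. In MET10 it was 90.4% and 80.8% in set2Δ against 66.7% and 66.7% in BY4741, from 15 and 6 counts. The intervals, which cover counting error only, overlapped between the strains for MET10 and for MET5.

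Over the 10 genes, the share was higher in both set2Δ libraries than in both BY4741 libraries for 6 genes, lower for 2 and overlapping for 2. Over the 4484 genes tested in both windows with a count in every library, the share was higher in this way for 42.4% and lower for 13.8%. The other 3 with a higher share were MET6 (means 32.7% in set2Δ and 18.9% in BY4741), MET14 (10.9% in set2Δ and 5.60% in BY4741) and CYS4 (13.2% in set2Δ and 9.33% in BY4741). The lower ones were CYS3 (7.09% in set2Δ and 10.1% in BY4741) and SUL2 (72.8% in set2Δ and 90.0% in BY4741), and MET2 and MET16 overlapped. With 2 libraries against 2 the exact two-sided permutation test cannot go below 0.333, the value for each of these 8 genes. Of these 8, only MET3 had Wilson intervals that did not overlap between the strains. The SUL2 shares in BY4741 came from 8 and 5 counts.

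**Figure D4:**
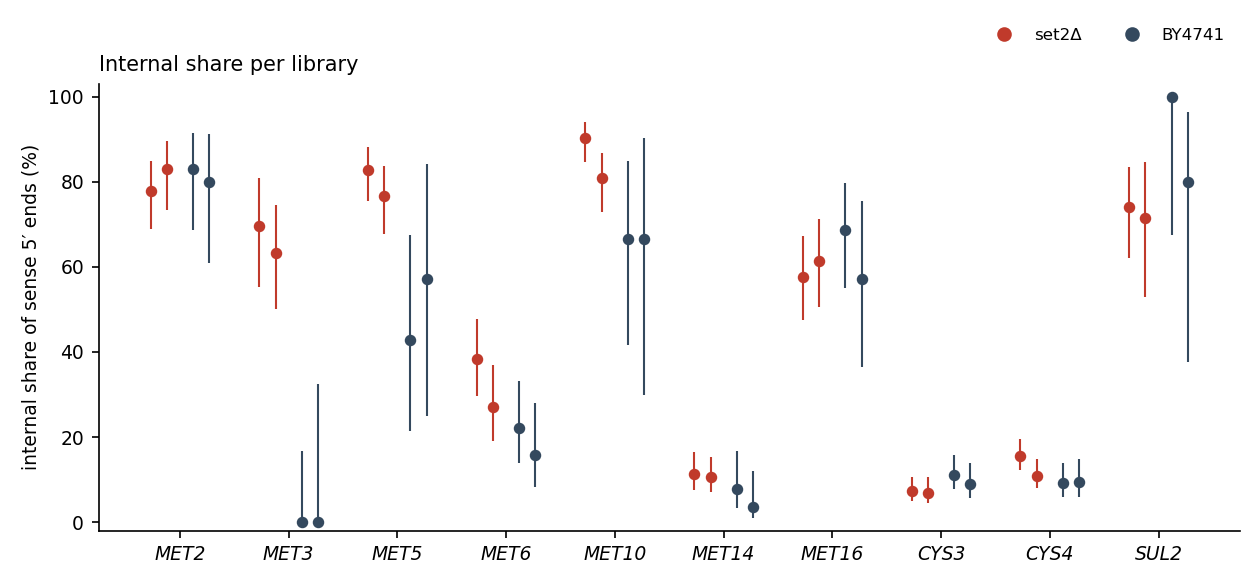
Internal share of sense 5′ ends (%) in each library of set2Δ (left) and BY4741 (right), with 95% Wilson intervals that cover counting error only. The share of MET3 is 69.6% and 63.2% in set2Δ and 0% in both BY4741 libraries, while CYS3, CYS4 and MET14 stay below 16% in every library.

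The internal ends of the 3 rising genes were not spread evenly along the gene in set2Δ. With the internal window cut into 3 equal parts, the middle part held 70.6% of the internal counts of MET3 in set2Δ, 72.9% of those of MET5 and 76.4% of those of MET10. In BY4741 the middle part held 57.1% of the 14 internal counts of MET10 and 30.0% of the 10 of MET5. The densest 100 bases, chosen on the set2Δ counts and so given without a test, lay at bases 1983 to 2082 of MET5. They held 66 and 50 counts in set2Δ and 0 and 1 counts in BY4741. In MET10 they lay at bases 1681 to 1780, with 47 and 46 counts in set2Δ and 0 and 0 in BY4741. In MET3 they lay at bases 898 to 997, with 14 and 28 counts in set2Δ and 0 and 0 in BY4741.

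MET6, whose internal total did not pass the test, had such a stretch as well. Bases 1117 to 1216 of MET6 held 18 and 11 counts in set2Δ against 1 and 1 counts in BY4741. The middle part of MET6 held 81.8% of its internal counts in set2Δ and 43.5% in BY4741. MET2 and MET16 had a cluster in both strains. In MET2 it lay near the stop codon, at bases 1306 to 1405 of 1461, with 77 and 62 counts in set2Δ and 30 and 19 in BY4741. It ended 514 bases before the start codon of BOR1, the next gene on the same strand. In MET16 it lay at bases 298 to 397, with 33 and 30 counts in set2Δ and 28 and 10 in BY4741.

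**Figure D5:**
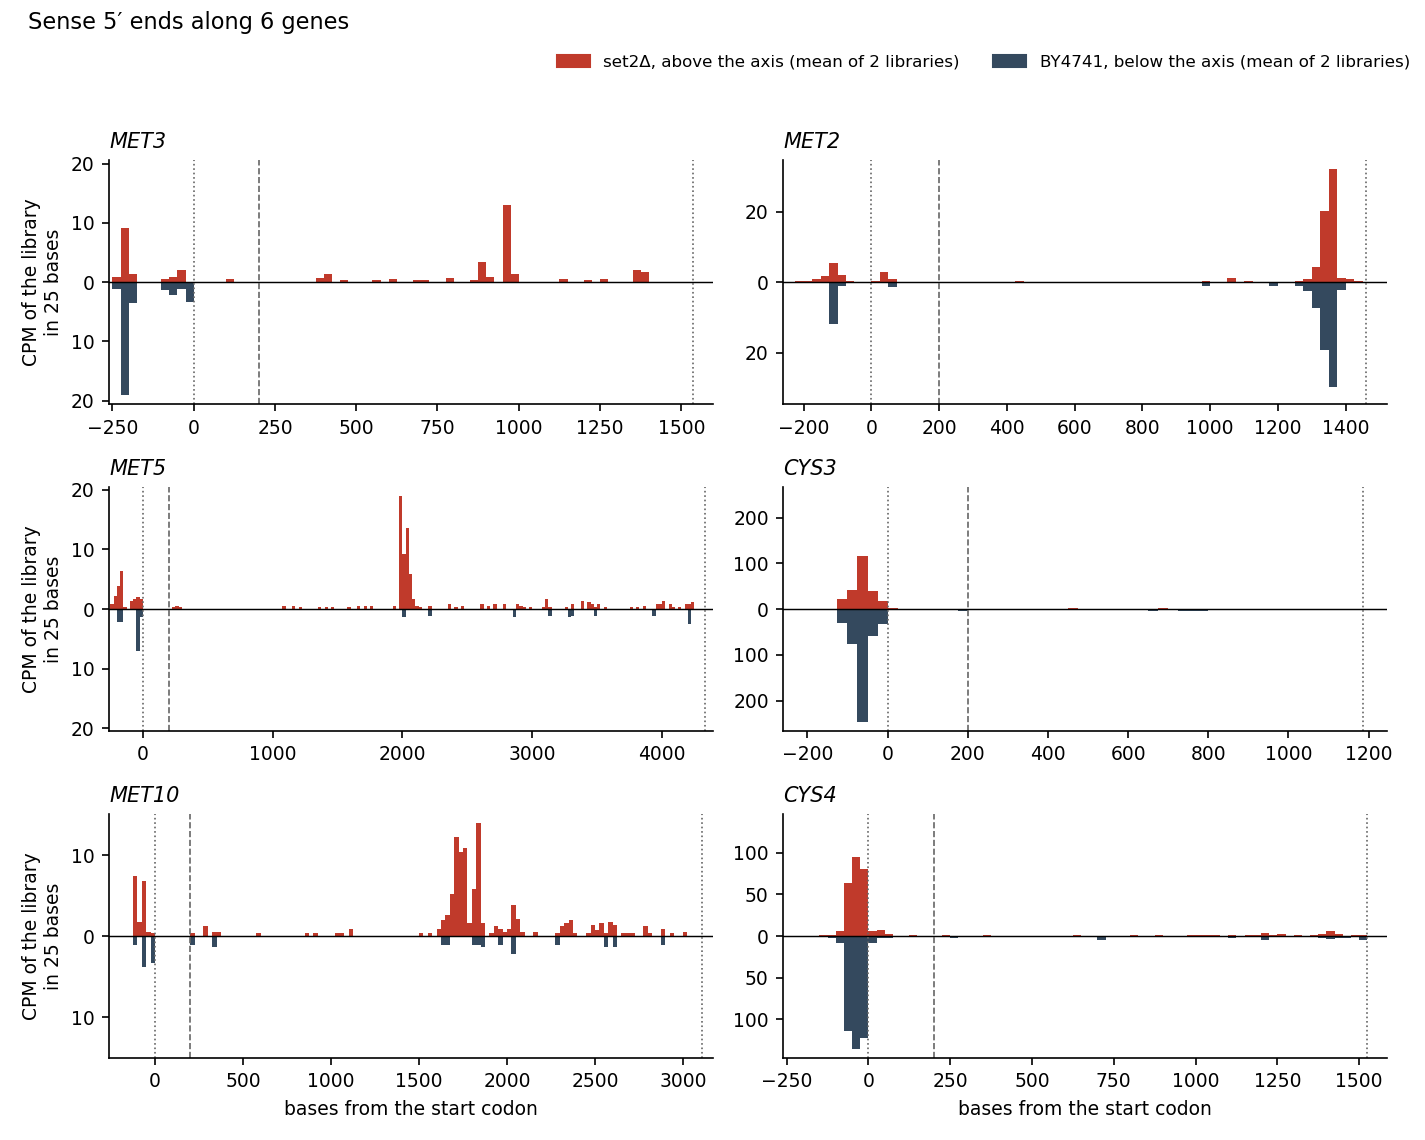
Sense 5′ ends in bins of 25 bases along 6 genes, in CPM of the library total, set2Δ above and BY4741 below the axis (means of 2 libraries). Dotted lines mark the start codon and the gene end, dashed lines base 200. MET3, MET5 and MET10 have clusters in the middle of the gene in set2Δ, MET2 has the same cluster near its end in both strains, and CYS3 and CYS4 have their ends before the start codon.

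The highest internal position of each gene, among those with at least 5 counts in both libraries of a strain, is printed with 29 bases before it and 20 after it, as the most used base of each, although it held only a part of the internal ends. The capital marks the mapped 5′ end. In MET3 it is base 967 of the gene, with 5 and 5 counts in set2Δ and 0 and 0 in BY4741. In MET5 it is base 1999, with 15 and 16 counts in set2Δ and 0 and 0 in BY4741. In MET10 it is base 1831, with 8 and 8 counts in set2Δ and 0 and 0 in BY4741. MET2 (base 1366) and MET16 (base 322) are shown for comparison as positions used in both strains. MET2 had 13 and 14 counts there in set2Δ and 9 and 4 in BY4741, and MET16 had 7 and 5 in set2Δ and 2 and 1 in BY4741.
MET3 (5′ end at chrX:457205, plus strand): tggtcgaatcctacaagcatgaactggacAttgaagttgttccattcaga
MET5 (5′ end at chrX:681287, minus strand): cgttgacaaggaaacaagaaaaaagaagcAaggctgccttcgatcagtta
MET10 (5′ end at chrVI:215142, plus strand): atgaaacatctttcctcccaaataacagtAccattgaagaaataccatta
MET2 (5′ end at chrXIV:118714, plus strand): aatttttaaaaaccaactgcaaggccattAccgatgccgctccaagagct
MET16 (5′ end at chrXVI:877311, minus strand): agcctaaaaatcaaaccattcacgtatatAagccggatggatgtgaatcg

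All 5 ends fall on an A after a pyrimidine, the pattern known for yeast RNA polymerase II starts. In MET3 the first ATG after the end, 21 bases on, is in the frame of the gene and would open a reading frame of 182 codons out of 511. In MET5 the first ATG is 58 bases on and out of frame, and the first in frame is codon 716 of 1442. In MET10 the first is 76 bases on and out of frame, and the first in frame is codon 682 of 1035. These are readings of the reference sequence, and no protein was measured.

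The base composition at the internal 5′ ends set CYS3 and CYS4 apart from the other members in set2Δ. Over all counted genes, a purine after a pyrimidine stood at 55.8% and 58.1% of internal ends in set2Δ and at 34.5% and 33.1% in BY4741, while 23.1% of the bases in internal windows have this context. In set2Δ the share was 87.5% and 97.2% inside MET3, 64.5% and 69.5% inside MET5 and 73.0% and 79.2% inside MET10. In BY4741 it was 70.0% and 75.0% inside MET10, from 10 and 4 counts, and 16.7% and 50.0% inside MET5, from 6 and 4 counts. MET2 and MET16, also called lower inside, had 84.0% and 89.7%, and 90.6% and 86.3%, in set2Δ. MET6, not called inside, had 85.4% and 84.0% in set2Δ. Inside CYS3 it was 24.0% and 21.1% in set2Δ and 23.1% and 41.2% in BY4741, close to the 23.8% of its bases. Inside CYS4 it was 16.1% and 30.6% in set2Δ and 22.2% and 31.3% in BY4741, against 22.6% of its bases. In their 5′ windows, the ends of CYS3 and CYS4 had this context at 75.0% to 83.0% in set2Δ and at 79.2% to 89.5% in BY4741. In set2Δ the internal counts of CYS3 and CYS4 thus differ in the bases they begin on from those of MET3, MET5 and MET10. They differ in the same way from those of MET2 and MET16, so the context did not follow the direction of the internal calls. The part this plays in the CYS3 and CYS4 values was not tested.

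The main 5′ end of each gene, the base with the most counts in its 5′ window over the 4 libraries, lay before the start codon in all 10. Leaders measured from it ran between 36 bases in CYS4 and 213 bases in MET3. In 8 genes the base did not depend on whether raw or depth-scaled counts were used. The exceptions were MET3, with 213 or 203 bases, and MET10, with 119 or 54 bases. The most used base was the same in both strains in MET2, MET6, MET14, MET16, CYS3, CYS4 and SUL2, the last with only 1 count in BY4741.

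The main 5′ ends of the 4 genes that fell in the 5′ window are given in the same way, with 29 bases before the end and 10 after it, since the base itself did not move in 3 of them.
MET3 (5′ end at chrX:456026, plus strand): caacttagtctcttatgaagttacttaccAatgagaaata
MET6 (5′ end at chrV:342237, minus strand): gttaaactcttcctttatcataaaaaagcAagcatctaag
CYS4 (5′ end at chrVII:798507, plus strand): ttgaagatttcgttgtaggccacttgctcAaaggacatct
CYS3 (5′ end at chrI:130735, plus strand): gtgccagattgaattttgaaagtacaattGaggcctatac

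At 3 of these bases the counts differed little between the strains, against a depth ratio of 2.86. The main end of CYS3 held 22 and 27 counts in set2Δ and 20 and 18 in BY4741. That of CYS4 held 21 and 23 counts in set2Δ and 17 and 18 in BY4741. That of MET6 held 18 and 16 counts in set2Δ and 16 and 17 in BY4741. The main end of MET3 differed more, with 6 and 5 counts in set2Δ and 3 and 0 in BY4741. MET14, whose 5′ window was not called, had 15 and 15 counts at its main end in set2Δ and 10 and 14 in BY4741. The main ends of MET16, MET10 and SUL2 were less used. That of MET16 held 8 and 5 counts in set2Δ and 4 and 2 in BY4741, that of MET10 4 and 11 in set2Δ and 1 and 0 in BY4741, and that of SUL2 9 and 5 in set2Δ and 0 and 1 in BY4741. The highest counts at any nuclear position were 225 and 218 in set2Δ and 221 and 175 in BY4741. Positions with 8 or more counts in any library held 72.1% and 76.6% of the 5′ counts of CYS3 in set2Δ, and 76.8% and 81.3% in BY4741. With all such positions left out, the log2 change in the 5′ window was -1.34 for CYS3, -0.62 for CYS4, -1.58 for MET6 and -1.86 for MET3, and each was still called.

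On the opposite strand, counts inside the genes and outside the 5′ windows of other genes were few. The antisense test took in 4 of the 10 genes with at least 10 counts, of which 1 was called higher, against 17.9% of all 1478 genes tested, and 0 lower, against 4.40% (edgeR quasi-likelihood test). None was lower at an unadjusted p below 0.05 either, and 0 were with DESeq2. MET10 had 13 and 18 antisense counts in set2Δ and 0 and 0 in BY4741, at least 1.94-fold higher in set2Δ against a floor of 3 counts over the 2 BY4741 libraries (edgeR quasi-likelihood test, adjusted p = 0.0339). The call was lost without set2Δ replicate 2 (adjusted p = 0.349) and without BY4741 replicate 1 or 2 (adjusted p = 0.197 and 0.167). MET6 had 9 and 9 antisense counts in set2Δ and 0 and 0 in BY4741, which did not pass the test (adjusted p = 0.107). MET10 and MET6 reached the minimum of 10 counts through the deeper set2Δ libraries alone, so they could enter this test only as higher. Over all 1478 genes tested the median log2 change was 1.23.

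SUL2 and MET2 had antisense ends in both strains. SUL2 held 38 and 34 in set2Δ and 6 and 6 in BY4741 (log2 change 0.17 ± 0.49 SE, adjusted p = 0.817). MET2 held 27 and 14 in set2Δ and 10 and 5 in BY4741 (log2 change -0.95 ± 0.51 SE, adjusted p = 0.158), and bases 1104 to 1203 of the gene held 18 and 10 of these in set2Δ and 8 and 5 in BY4741. No median is given for the 4 genes, since 2 of them stand at 0 counts in BY4741. CYS4 had 0 antisense counts in all 4 libraries, which at a floor of 3 counts says only that none was detectable at this depth, and the other 5 genes had too few to test.

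Around these 10 genes, 31 other genes of sulfur metabolism showed calls in both directions. In the internal window 30 were tested, of which 6 were called higher and 6 lower, against 25.2% and 17.5% over all genes. MET4, which encodes the activator of the pathway, had 579 and 531 CPM inside the gene in set2Δ against 181 and 194 CPM in BY4741 (log2 change 1.57, adjusted p = 5.62e-05). MET1, needed for the siroheme cofactor of sulfite reductase, had 380 and 454 CPM in set2Δ against 60.2 and 55.4 CPM in BY4741 (log2 change 2.81, adjusted p = 2.43e-07). STR2, a cystathionine γ-synthase gene, also rose (log2 change 1.94, adjusted p = 3.44e-06), as did the transporter gene YCT1, from 11 and 15 counts in set2Δ against 0 and 0 in BY4741, at least 1.91-fold (adjusted p = 0.0134).

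Among the 6 called lower inside the gene, the S-adenosylmethionine synthetase gene SAM1 had 90.4 and 112 CPM in set2Δ against 662 and 471 CPM in BY4741 (log2 change -2.52, adjusted p = 3.74e-12). The transporter gene SAM3 (log2 change -2.28), the homoserine dehydrogenase gene HOM6 (-1.78) and MET28 (-1.46), whose product assists Met4, were also called lower.

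In the 5′ window 29 of the 31 genes were tested, 5 called higher (17.2%, against 32.3% over all genes) and 10 lower (34.5%, against 30.2%). The higher ones included the regulators MET32 (log2 change 1.95, adjusted p = 0.00244) and MET4 (1.26, adjusted p = 6.99e-05), and STR2 (1.09, adjusted p = 4.67e-05). Of the 5 genes of the S-adenosylmethionine cycle, 4 were called lower in that window and none higher, a list too short to set against those shares. Among them were SAM1 (log2 change -0.82), the S-adenosylhomocysteine hydrolase gene SAH1 (-0.81) and the homocysteine methyltransferase gene MHT1 (-0.77). In the homoserine branch 2 of 3 were called lower, HOM6 (-1.24) and the aspartate semialdehyde dehydrogenase gene HOM2 (-0.72). The median log2 change of the 29 genes was -0.03, against 0.11 over all genes. In the antisense test, where 17.9% of all genes were called higher and 4.40% lower, 9 of the 31 were tested, with 1 called higher (the methionine permease gene MUP3, with 16 and 10 counts in set2Δ and 0 and 0 in BY4741, at least 1.63-fold, adjusted p = 0.0554) and 1 lower (the methylenetetrahydrofolate reductase gene MET13, log2 change -1.68, adjusted p = 1.96e-08). The difference between the internal and the 5′ change was called positive for 3 of 28 (MET1, HOM2 and the glutathione synthetase gene GSH2) and negative for 2 (SAM3 and SAM1), or 10.7% and 7.14%, against 7.88% and 6.86% over all genes.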

How the data were processed

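Cap-ligated libraries of total RNA were made from set2Δ and BY4741 yeast (2 libraries each). The authors deposited, per library and strand, counts of 5′ ends per base, and reads that aligned to several places or with a clipped 5′ end had been left out. Whether reads sharing a barcode were merged is not given in the sources used here. The submitters' processing notes name CASAVA 1.8.2, Novoalign and build R64 (sacCer3), and all 16 nuclear chromosome lengths equalled those of R64-1-1. On the minus strand, 42 bp were added to each listed position. A purine after a pyrimidine then stood at 77.0% to 78.8% of minus-strand positions with at least 5 counts, against 23.4% to 23.8% as listed. Positions shared by windows of 2 genes on a strand were left out.

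Raw counts of all 5710 genes counted were tested with edgeR's quasi-likelihood test (version 4.0.16, TMM, at least 10 counts over the 4 libraries, Benjamini-Hochberg over all genes tested, called at adjusted p below 0.1). The threshold follows the study, and DESeq2 (version 1.42.0), which it used, is an alternative. The internal and the 5′ change were compared in an interaction fit with library as a factor. The procedure was run on simulated counts with equal numbers of raised and lowered genes. The internal calls here are not split evenly, so that run is no support for them. A share has a 95% Wilson interval. A floor is 3 counts over a group. Genes with 0 counts in BY4741 reached the minimum of 10 counts through set2Δ alone and could be called only higher. These were MET3 and YCT1 in the internal window, and MET10, MET6 and MUP3 antisense. Motifs were searched on both strands of the 300 bp before the main 5′ end. P-values set the strain difference against the spread between these libraries, which for each gene is estimated partly from all genes tested.

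The 10 genes, the 31 further genes and their lists were chosen with earlier results of these data known. All 10 genes are named in every window. Of the further genes only called ones are named, at most 8 per window by size of change. Alternatives covered tests, scaling, filters, windows, high positions and each library left out.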

Additional observations from a re-analysis of the deposited data

How the results depend on the processing

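Starts inside MET3, MET5 and MET10 (higher) and 5′ ends inside CYS3 (lower) kept direction and call under every alternative run. So did 5′ window starts of CYS3 and MET6 (lower). The numbers of all genes called higher and lower in the internal window were 618 and 459 with DESeq2, against 1189 and 828, and 1948 and 346 with libraries scaled to totals. With scaling to the 5′ windows 442 were lower. Members called higher inside numbered 4 with totals, SUL2 being gained (log2 change 0.93), in place of 3. Of the members, 2 were called lower inside with DESeq2, 1 with totals and 1 with 5′ window scaling, in place of 4, and 1 to 5 when a library was left out. Calls higher made up 84.9% of internal calls with totals and 79.4% with 5′ window scaling, against 58.9%.

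In the 5′ window, genes called higher numbered 700 with DESeq2, 913 without positions of 8 or more counts and 392 by distinct positions, against 1636, and 664 were lower by distinct positions, against 1529. The member called higher, SUL2, was lost (0) with DESeq2, cyclic loess offsets, filterByExpr, which did not test it, positions of 8 or more counts left out, distinct positions and the window from 100 bp upstream, and numbered 0 to 1 with a library left out. Calls higher made up 36.9% of 5′ calls with DESeq2, 37.1% by distinct positions and 64.3% with totals, against 51.7%.

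Antisense calls higher, 265 in the test as reported, numbered 133 at an adjusted p of 0.05, 79 with DESeq2, 805 with totals, 738 with 5′ window scaling, 87 with loess, 122 with filterByExpr, 143 without the highest position and 43 to 91 with a library left out. Antisense calls lower, 65 as reported, numbered 39 with DESeq2, 30 with totals, 35 without a filter, 43 with 5′ window scaling and 35 to 54 with a library left out. Members called higher antisense numbered 0 with DESeq2, loess and filterByExpr, 2 with DESeq2 size factors, distinct positions, other genes' 5′ windows kept and 5′ window scaling, 3 with totals, and 0 to 1 with a library left out. With filterByExpr 1 member, MET2, was lower. DESeq2 gave no adjusted p for antisense MET6. Calls higher made up 96.4% of antisense calls with totals, 94.5% with 5′ window scaling and 54.7% with loess, against 80.3%.

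For the internal against the 5′ change, genes with the larger internal change numbered 708 with 1 scaling per library, 121 by distinct positions and 106 to 219 with a library left out, against 355. Those with the smaller numbered 204 at an adjusted p of 0.05, 77 with 1 scaling per library and 144 to 214 with a library left out, against 309. The larger change made up 90.2% of calls with 1 scaling per library, and 31.3% by distinct positions, against 53.5%, and 42.4% and 45.02% without set2Δ replicate 1 and 2. Members with the larger change numbered 3 with 1 scaling per library and 2 without positions of 8 or more counts. Members with the smaller numbered 0 under both, 2 by distinct positions and 0 to 1 with a library left out.

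Same-numbered libraries did not deviate together (correlation of deviations -0.07 in both windows). These deviations include counting noise, so the value cannot decide whether same-numbered libraries were grown together, which the labels do not say. With the replicate number as a block, 1088 genes were higher and 714 lower inside, 1477 and 1431 in the 5′ window, and 120 and 42 antisense, where no member (0) stayed called, and CYS4 inside was lost (adjusted p = 0.153).

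The called value inside CYS4 turned to a log2 change of 0.0057 under library totals and was no longer called. Uncalled members changed sign in places. Under library totals the log2 change was 0.0047 inside MET6, 0.11 for MET2 and 0.13 for MET14 in the 5′ window. By distinct positions it was -0.0095 inside SUL2, 0.66 for MET2 and -0.32 for MET10 in the 5′ window, and -0.17 for the difference in MET6. With loess it was -0.36 for MET5, -0.046 for MET10 and 0.088 for MET14 in the 5′ window. Without the highest position it was 0.74 for MET2 and 0.029 for MET14. Without positions of 8 or more counts it was -0.12 for MET5, -0.89 for MET10 and -0.10 for the difference in CYS4. With the window from 100 bp upstream it was 1.33 for MET2 and -0.42 for MET5, and with 300 bp left out at the start -0.060 inside MET14. With a library left out it ran between -0.41 and 0.60 inside SUL2, between -0.37 and 0.15 for MET2, -0.20 and 0.10 for MET14 and -0.41 and 0.092 for MET16 in the 5′ window, between -0.22 and 0.18 for antisense SUL2, and between -0.31 and 0.12 for the difference in CYS4.

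Calls were also gained for MET6 inside (6 alternatives), for MET14 with the window from 100 bp upstream (-0.44) and MET16 with loess (-0.91) in the 5′ window, for antisense MET6 (5 alternatives) and, with totals, SUL2 (1.06), and for the difference in MET5 (2 alternatives), MET6 (1.05, 1 scaling per library) and MET2 (-1.98, distinct positions).

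The internal share difference moved in MET14 with 300 bp left out (1.04 points, against 5.30) and without positions of 8 or more counts in CYS3 (-11.9, against -3.01) and CYS4 (-2.21, against 3.91). The cause of these changes was not tested. Depth limits the low counts: BY4741 held 0 to 10 internal counts per library in MET3, MET5, MET10, MET14 and SUL2.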
